A study of Homo sapiens with 9 samples.

Results

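The genes described here are 29 genes of cholesterol biosynthesis and of its control by SREBP2, out of 60671 genes listed per library. They were chosen by name from the known pathway, though with earlier results of these data known. The set holds 21 enzymes and associated proteins of the route from acetyl-CoA to cholesterol, 2 genes for proteins that carry or handle sterols inside the cell, and 6 genes that make, hold or cut the SREBP2 precursor. Other enzymes of the route were not analysed here. All 29 genes passed the filter on low counts, so no member was lost before the tests. TM7SF2 passed it only through the libraries of a single group, as given below.

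Cells make cholesterol from acetyl-CoA by way of mevalonate, isoprenoid phosphates, squalene and lanosterol, and lanosterol is then trimmed and reduced to cholesterol in a series of steps in the endoplasmic reticulum. SREBP2, encoded by SREBF2, is the transcription factor that drives most of these genes when membrane sterol is low. When sterol is plentiful, INSIG proteins hold the SREBP2 carrier SCAP in the endoplasmic reticulum. When sterol falls, SCAP carries SREBP2 in COPII vesicles to the Golgi, where the proteases encoded by MBTPS1 and MBTPS2 release its active part. Steroid-producing cells such as those of the adrenal cortex use cholesterol as the starting material for every steroid hormone, and take much of it from lipoproteins as well as making it.

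RNA was sequenced from H295R cells, a human adrenocortical carcinoma line that makes steroids. There were 3 groups of 3 libraries, without any treatment: unmodified cells labelled wild type (WT), SGPL1 knockout cells (KO) and cells with the label of SGPL1 overexpression (OE). SGPL1 encodes the lyase that irreversibly degrades sphingosine-1-phosphate, and the series asked how its level alters the transcriptome of these cells. The sources used here do not give the kind of edit, the overexpression construct or whether a group is a single clone. Each group's libraries are called biological replicates in the design text, with no mention of separate cultures, so the p-values rest on the spread among these particular libraries, which may be technical in part. Values per library are given in the order of replicates 1, 2 and 3, in CPM, the usual depth-scaled unit, computed on TMM-scaled library totals. Differences are log2 fold changes ± standard error, adjusted p is from edgeR's quasi-likelihood F test with Benjamini-Hochberg adjustment over all 14150 tested genes, and calls were made below an adjusted p of 0.05.

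SGPL1 transcripts were at 102, 83.4 and 98.1 CPM in the WT libraries, 47.2, 43.9 and 53.8 CPM in the KO libraries, and 98.1, 81.3 and 101 CPM in the libraries labelled OE. The KO libraries lay below all WT libraries (log2 fold change -0.97 ± 0.14, edgeR adjusted p = 0.000105), while the libraries labelled OE overlapped WT (-0.01 ± 0.14, adjusted p = 0.966, 95% interval -0.30 to 0.27). The label OE is therefore not matched by a higher SGPL1 count in these files, and every direction given below for OE is that of the libraries so labelled. Library totals ran from 8006873 to 10895080 counts. All 8 adrenocortical markers passed the filter, and their summed level was 2550 to 2910 in WT, 3510 to 4150 in KO and 3470 to 4180 CPM in the libraries labelled OE. Among them SCARB1 differed most in CPM, at 1090 ± 117 in WT, 1800 ± 124 in KO and 1940 ± 215 CPM in OE (SD, n = 3). NR5A1 was not called against WT in KO (0.24, edgeR adjusted p = 0.16) or in OE (-0.04, adjusted p = 0.847). Of markers of other cell types, 4 endothelial and 4 leukocyte genes reached at most 4 and 12 counts in any library, and 2 of the leukocyte genes were at 0 throughout. The 6 fibroblast markers, 1 of them at 0 throughout, summed to 16.5 to 27.2 in WT, 17.1 to 19.2 in KO and 11.9 to 16.8 CPM in OE. Of the 2 that passed the filter, COL3A1 was lower than WT in KO (-1.62, edgeR adjusted p = 0.000699) and in OE (-1.54, adjusted p = 0.00197). COL1A1 was not called in either (0.18 and -0.13). PDGFRB, which did not pass, had 0, 0 and 2 counts in WT and 24, 22 and 10 in KO. The 5 epithelial markers summed to 27.1 to 31.1 in WT, 14.4 to 17.8 in KO and 30.1 to 34.6 CPM in OE, and the lower sum in KO was carried by EPCAM (25.3 ± 2.53 in WT and 12 ± 1.29 CPM in KO, SD, n = 3, log2 -1.08, edgeR adjusted p = 0.000192). Of the 5, only EPCAM and KRT18 passed the filter, and KRT18 was not called (0.19, adjusted p = 0.79). The part of these markers in the results was not tested. In bulk RNA, a change in the share of cells and a change in RNA per cell cannot be told apart. Transcripts of ribosomal proteins took 4.52% to 5.89% of counts in WT, 3.55% to 4.2% in KO and 6.34% to 8.14% in OE, and short transcripts were relatively more abundant in the libraries labelled OE. For each library, log2 CPM relative to the gene's mean over the 3 groups was regressed on log2 transcript length. The slope was -0.053 to 0.103 in WT, 0.042 to 0.129 in KO and -0.204 to -0.075 in OE. A fit with a correction for length is therefore given wherever it ends a call of a member. WT replicate 2 and OE replicate 2 stood furthest from the rest of their groups. The chi-square per degree of freedom between the counts of paired libraries was 11.5 and 17.9 for the pairs with WT replicate 2 against 6 for the other WT pair, 17.5 and 16.5 for the pairs with OE replicate 2 against 4.48 for the other OE pair, and 4.77 to 13.3 among the KO libraries. OE replicate 2 also had the slope of -0.204 and the ribosomal share of 8.14%. Without both libraries, an alternative chosen after seeing the data, 18 members were called higher and 3 lower in KO than in WT. In that fit, 10.1% of all genes tested were called higher and 11% lower in KO. In OE against WT, 9 members were higher and 2 lower, beside 10.6% and 11.7% of all genes tested. In OE against KO, 4 members were higher and 13 lower, beside 17.5% and 18.6% of all genes tested.

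Summed over the 21 enzymes, transcript level was 2420, 2540 and 2350 CPM in the WT libraries, 3640, 3460 and 3580 CPM in the KO libraries, and 2940, 3010 and 2860 CPM in the libraries labelled OE. The 3 groups did not overlap, with KO highest and OE between KO and WT. As group means, the sums were 2440 ± 92.9 in WT, 3560 ± 95.3 in KO and 2940 ± 71.5 CPM in OE (SD, n = 3). HMGCS1 alone gave 347, 332 and 378 of those CPM in WT and 578, 624 and 775 CPM in KO, and without it the sums were 1980 to 2210 in WT, 2810 to 3060 in KO and 2490 to 2720 CPM in OE. The order of the groups was thus the same with and without HMGCS1.

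Levels of different genes can be compared only per length of transcript, and are given for that purpose as CPM per kilobase of exon in the WT libraries. The highest level belonged to TMEM97 (109 ± 3.17 CPM per kilobase, SD, n = 3), a sterol-binding membrane protein, followed by DHCR7 (75.7 ± 2.98) and FDFT1 (67.5 ± 9.05). The lowest levels were those of TM7SF2 (0.315), FAXDC2 (0.901), CYP51A1 (2.64) and GGPS1 (2.83 CPM per kilobase). FAXDC2 and TM7SF2 thus stood below the other members by this measure. The CYP51A1 level is a partial one, since 84.5% of its exonic bases are shared with other annotated genes and reads over such bases were left out of the counting. The same holds to a lesser degree for GGPS1 (41% shared), HMGCS1 (37.7%), EBP (36.4%) and ACAT2 (22.2%). FDPS, CYP51A1 and HSD17B7 also have near-identical pseudogene copies, so their levels are uncertain for that reason too.

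**Figure D1:**
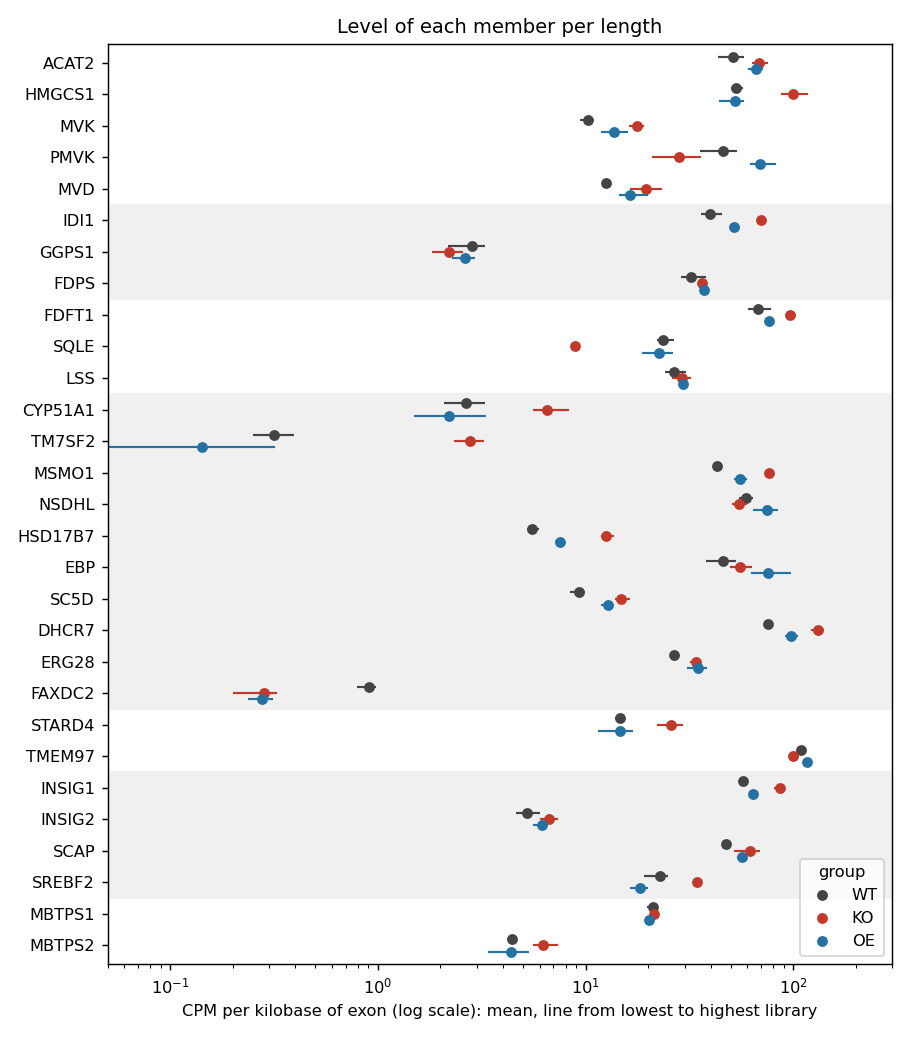
Level of each of the 29 genes in CPM per kilobase of exon (horizontal log axis), in pathway order from top to bottom with shaded bands separating the steps. Points are means of 3 libraries and lines run from the lowest to the highest library, with WT in grey, KO in red and OE in blue; the OE line of TM7SF2 leaves the axis at the left because 1 OE library had 0 counts.

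The knockout was compared with WT to ask how loss of the lyase bears on the cells' transcripts. In KO, 16 of the 29 genes rose and 3 fell, and 10 were not called. Among all genes tested, 9.16% were called higher and 9.6% lower in KO. The members' median log2 fold change was 0.49, against -0.007 over all genes tested. The rise took in HMGCS1, MVK, MVD and IDI1 at the start of the route, FDFT1 at its commitment to sterols, 6 of the 10 genes past lanosterol, and SREBF2, SCAP and INSIG1 among the control genes. SQLE, PMVK and FAXDC2 fell. By role, 12 of the 21 enzymes rose and 3 fell, and 3 of the 6 control genes rose and none fell.

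**Figure D2:**
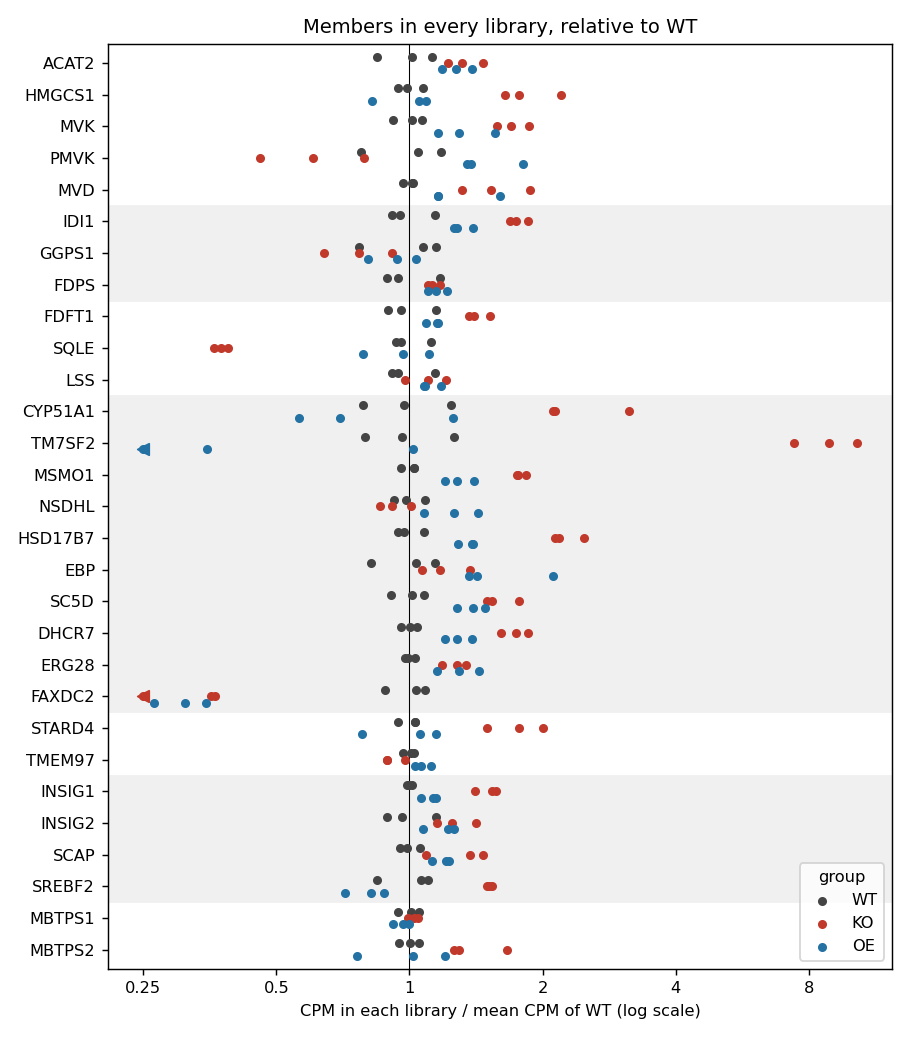
CPM of each gene in each library divided by the mean CPM of WT (horizontal log axis), with 3 WT libraries in grey, 3 KO libraries in red and 3 OE libraries in blue. The KO points of HMGCS1, IDI1, MSMO1, HSD17B7 and DHCR7 lie right of all WT and OE points, those of SQLE lie left of them, and triangles at the left edge mark ratios under 0.25.

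Promoter sequence is shown for 5 of the members with a small adjusted p in this comparison, to let the shared elements be seen beside the values. SQLE, which had the smallest, is not among them. Promoter windows of 300 bases, running from 250 bases before to 50 bases after an annotated start site, were taken from RefSeq for the GRCh38.p14 assembly and matched 26 of the 29 genes. Where a gene had several windows, the one nearest the gene's 5′ end in the counting annotation is shown, a choice made after the sequences had been seen. Capitals mark CCAAT on either strand (so also ATTGG), the box bound by NF-Y, a partner of SREBPs, and TCACNCCAC on either strand, a sterol regulatory element. The first is HSD17B7 at chr1:162790452-162790751 on the plus strand, MSMO1 lies at chr4:165327419-165327718 (plus), IDI1 at chr10:1049070-1049369 (minus), TM7SF2 at chr11:65111622-65111921 (plus) and HMGCS1 at chr5:43313363-43313662 (minus). SREBF2 at chr22:41832855-41833154 (plus) was added because it holds the only match to the sterol regulatory element among the members. Each is written 5′ to 3′ on the strand of its gene.
HSD17B7: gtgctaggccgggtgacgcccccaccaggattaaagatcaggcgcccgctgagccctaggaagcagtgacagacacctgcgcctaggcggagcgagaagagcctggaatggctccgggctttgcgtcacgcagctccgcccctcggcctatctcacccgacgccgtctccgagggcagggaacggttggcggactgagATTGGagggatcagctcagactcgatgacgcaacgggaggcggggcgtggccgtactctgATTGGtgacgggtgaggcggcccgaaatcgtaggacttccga
MSMO1: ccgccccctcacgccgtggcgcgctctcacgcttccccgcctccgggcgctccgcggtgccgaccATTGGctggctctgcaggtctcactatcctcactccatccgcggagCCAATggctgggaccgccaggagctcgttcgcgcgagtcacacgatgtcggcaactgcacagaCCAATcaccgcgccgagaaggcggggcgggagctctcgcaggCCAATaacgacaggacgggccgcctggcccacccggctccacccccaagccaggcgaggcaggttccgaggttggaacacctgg
IDI1: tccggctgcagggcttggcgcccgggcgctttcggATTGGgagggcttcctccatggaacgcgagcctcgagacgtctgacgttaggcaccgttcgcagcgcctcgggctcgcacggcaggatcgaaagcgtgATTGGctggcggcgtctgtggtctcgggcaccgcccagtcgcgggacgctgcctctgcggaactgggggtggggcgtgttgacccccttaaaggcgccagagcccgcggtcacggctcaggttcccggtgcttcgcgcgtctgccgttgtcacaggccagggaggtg
TM7SF2: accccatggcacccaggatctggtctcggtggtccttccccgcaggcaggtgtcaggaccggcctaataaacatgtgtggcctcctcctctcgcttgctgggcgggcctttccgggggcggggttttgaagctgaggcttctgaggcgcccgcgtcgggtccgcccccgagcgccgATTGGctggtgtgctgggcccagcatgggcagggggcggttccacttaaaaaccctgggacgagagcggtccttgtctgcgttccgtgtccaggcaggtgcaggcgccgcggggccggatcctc
HMGCS1: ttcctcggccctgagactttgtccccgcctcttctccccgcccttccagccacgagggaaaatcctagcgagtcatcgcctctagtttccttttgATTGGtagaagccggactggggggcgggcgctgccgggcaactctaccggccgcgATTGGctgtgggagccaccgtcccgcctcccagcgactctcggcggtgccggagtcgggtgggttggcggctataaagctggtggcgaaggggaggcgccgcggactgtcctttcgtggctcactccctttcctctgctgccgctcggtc
SREBF2: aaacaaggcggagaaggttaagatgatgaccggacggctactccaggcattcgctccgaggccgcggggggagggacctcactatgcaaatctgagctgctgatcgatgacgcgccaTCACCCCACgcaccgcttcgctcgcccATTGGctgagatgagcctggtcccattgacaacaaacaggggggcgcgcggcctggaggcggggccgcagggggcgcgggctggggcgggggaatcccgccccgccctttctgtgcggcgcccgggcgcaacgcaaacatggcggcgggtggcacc
MSMO1 had 4 such CCAAT boxes, 34, 76, 139 and 185 bases before the start site, while HSD17B7, IDI1 and HMGCS1 each had 2 and TM7SF2 had 1. Of the 2 boxes of HSD17B7, 1 lay 52 bases before its start site and 1 lay after it, at base 9. SREBF2 had the sterol element 133 bases and a CCAAT box 106 bases before its start. The window chosen by the same rule for DHCR7 held no match and is not printed, but its other window, at chr11:71448344-71448643 on the minus strand, held 2 CCAAT boxes, 94 and 48 bases before the start. No match says only that these letters are absent from the window.

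Over all members with a window, CCAAT was found in 19 of 26 genes (73.1%), against 39.7% of the 27305 genes with a window. These 27305 were not limited to genes that passed the filter on low counts, as all members did, so the sets are unlike in expression. The Sp1 GC box GGGCGG was found in 22 (84.6%, against 48.3%), and the E-box CACGTG in 5 (19.2%, against 8.77%), both searched on either strand. The sterol regulatory element TCACNCCAC was found in 1 (3.85%, against 1.39%). Counted by windows instead, 34.6% of all windows held CCAAT, 45% the GC box, 7.26% the E-box and 1.13% the sterol element. Of the 14 matched members that rose in KO, 12 had a CCAAT box and 14 a GC box. The 2 matched members that fell were PMVK and FAXDC2, of which none had a CCAAT box and 1 had a GC box. SQLE, which also fell, was not among the matched members. Of the 10 not called, 7 had a CCAAT box and 7 a GC box. These are matches of letters, described without a test, and say nothing of occupancy by a factor.

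Of the 5 genes of the early mevalonate steps, 4 rose in KO and 1 fell. HMGCS1, the cytosolic synthase that makes HMG-CoA, was at 347, 332 and 378 CPM in WT and 578, 624 and 775 CPM in KO. All KO libraries lay above all WT libraries, a 1.87-fold difference (log2 0.90 ± 0.13, edgeR adjusted p = 0.000124). MVK, mevalonate kinase, was at 67.7, 71.3 and 61.2 CPM in WT and 124, 105 and 113 CPM in KO, again without overlap (0.77 ± 0.14, adjusted p = 0.000654). MVD, the decarboxylase that ends this stretch, was at 60, 59.5 and 56.9 CPM in WT and 110, 89.8 and 77.2 CPM in KO. Its KO libraries were more spread out than its WT libraries but did not overlap them (0.65 ± 0.16, adjusted p = 0.00781). ACAT2, the cytosolic thiolase that joins acetyl-CoA units, rose by less, from 138, 153 and 115 CPM to 199, 166 and 179 CPM (0.42 ± 0.13, adjusted p = 0.0289). PMVK (ENSG00000163344), phosphomevalonate kinase, lies between MVK and MVD in the route and went the other way, from 47.7, 53.9 and 35.5 CPM in WT to 36, 27.6 and 21 CPM in KO. The groups of PMVK overlapped, since KO replicate 1 lay above WT replicate 3, and the fall was called (-0.70 ± 0.20, adjusted p = 0.0212).

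The next 3 genes make and extend the isoprenoid phosphates. IDI1, the isomerase that supplies the reactive isoprene unit, was at 157, 196 and 164 CPM in WT and 300, 291 and 319 CPM in KO. The KO libraries were all higher (0.82 ± 0.11, edgeR adjusted p = 7.79e-05). FDPS, which makes farnesyl diphosphate, was at 113, 141 and 107 CPM in WT and 141, 135 and 132 CPM in KO, which overlapped (0.17 ± 0.12, adjusted p = 0.368, 95% interval -0.09 to 0.43). GGPS1, which diverts that product to geranylgeranyl diphosphate for protein prenylation, was at 12.4, 8.31 and 11.6 CPM in WT and 8.29, 6.92 and 9.84 CPM in KO, overlapping as well (-0.37 ± 0.22, adjusted p = 0.28). Thus IDI1 was the only called gene of the 3.

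From farnesyl diphosphate to lanosterol, 1 of 3 genes rose and 1 fell. FDFT1, squalene synthase, which commits the route to sterols, was at 335, 404 and 314 CPM in WT and 534, 478 and 492 CPM in KO. All KO libraries were higher (0.52 ± 0.11, edgeR adjusted p = 0.00356). SQLE (ENSG00000104549), squalene epoxidase, a rate-limiting oxygen-dependent step, was at 97.5, 95.1 and 114 CPM in WT and 38.3, 39.7 and 36.8 CPM in KO. The 3 KO libraries lay close together and far below WT, at 0.375 times the WT level (-1.42 ± 0.14, adjusted p = 3.65e-06). LSS, the cyclase that closes the sterol rings, was at 219, 175 and 181 CPM in WT and 232, 211 and 188 CPM in KO, and was not called (0.13 ± 0.12, adjusted p = 0.503). SQLE thus fell between a gene that rose before it in the route and one that was not called after it.

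Past lanosterol, 6 of 10 genes rose and 1 fell. HSD17B7, the ketoreductase of sterol demethylation, whose promoter is printed above, was at 25, 25.8 and 28.6 CPM in WT and 65.6, 57.7 and 56.6 CPM in KO. The groups stood well apart, at 2.26-fold (1.18 ± 0.14, edgeR adjusted p = 1.51e-05). MSMO1, the methyl oxidase that begins that demethylation and the gene with 4 CCAAT boxes, was at 117, 125 and 125 CPM in WT and 214, 215 and 224 CPM in KO. Its replicates were close in both groups (0.83 ± 0.11, adjusted p = 4.58e-05). DHCR7, the reductase that makes cholesterol from its direct precursor, was at 324, 299 and 313 CPM in WT and 577, 544 and 502 CPM in KO, with no overlap (0.79 ± 0.10, adjusted p = 4.52e-05). SC5D, the sterol desaturase acting just before it, was at 84.3, 100 and 94.3 CPM in WT and 139, 143 and 164 CPM in KO, again with all KO libraries higher (0.68 ± 0.12, adjusted p = 0.00075).

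TM7SF2 and CYP51A1 were low in WT and rose most in fold. TM7SF2, a sterol reductase gene, had 12, 7 and 9 counts in the WT libraries and 82, 74 and 104 counts in KO, that is 1.36, 0.856 and 1.04 CPM against 9.58, 8 and 11.1 CPM. This was the largest fold of the 29 genes, 8.7-fold, on few counts in WT (3.12 ± 0.45, edgeR adjusted p = 0.00011). TM7SF2 passed the filter on low counts only through its KO libraries, the group where it was high. In a fit of WT and OE alone it was not tested. CYP51A1, the lanosterol demethylase, was at 9.05, 7.34 and 11.6 CPM in WT and 19.7, 29.2 and 19.9 CPM in KO. Its KO libraries were all higher (1.29 ± 0.27, adjusted p = 0.00229), over the minority of its exonic bases that the counting could use.

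The other 4 genes of this stretch were not called higher. FAXDC2 (ENSG00000170271), a hydroxylase related to MSMO1, was at 6.78, 5.5 and 6.44 CPM in WT and 2.22, 2.27 and 1.39 CPM in KO. It fell to 0.315 times the WT level (-1.67 ± 0.32, edgeR adjusted p = 0.00147). ERG28, a scaffold of the demethylating enzymes, was at 61.7, 63.8 and 60.6 CPM in WT and 83.5, 79.5 and 73.7 CPM in KO, without overlap but not called (0.35 ± 0.13, adjusted p = 0.0669). EBP, the sterol isomerase, was at 84.6, 93.3 and 66.8 CPM in WT and 112, 95.6 and 87.2 CPM in KO, which overlapped (0.27 ± 0.17, adjusted p = 0.316). NSDHL, the dehydrogenase of the demethylating complex, was at 116, 128 and 109 CPM in WT and 119, 108 and 101 CPM in KO, and did not pass the test either (-0.11 ± 0.13, adjusted p = 0.629). With the length correction, ERG28 (0.45, edgeR adjusted p = 0.00566) and EBP (0.39, 0.0314) passed as higher.

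Among the genes of sterol handling, STARD4, a soluble protein that moves cholesterol between membranes, was at 78.6, 85.8 and 86.1 CPM in WT and 125, 148 and 167 CPM in KO. It rose with all KO libraries above WT (0.81 ± 0.15, edgeR adjusted p = 0.00095). TMEM97 was at 326, 321 and 308 CPM in WT and 283, 283 and 310 CPM in KO, and was not called (-0.12 ± 0.10, adjusted p = 0.441). Of the control genes, SREBF2 itself was at 183, 145 and 189 CPM in WT and 260, 264 and 257 CPM in KO. Its KO libraries were nearly equal and all higher (0.60 ± 0.12, adjusted p = 0.00249). INSIG1, the sterol-induced retention protein that is itself an SREBP target, was at 207, 213 and 209 CPM in WT and 329, 296 and 322 CPM in KO, also without overlap (0.59 ± 0.10, adjusted p = 0.00055). SCAP, the carrier, was at 315, 284 and 294 CPM in WT and 436, 409 and 325 CPM in KO, with KO replicate 3 just above the WT libraries (0.39 ± 0.12, adjusted p = 0.0278). INSIG2, the paralog of INSIG1, was at 18.3, 23.7 and 19.8 CPM in WT and 23.8, 25.7 and 29.2 CPM in KO, barely apart and not called (0.35 ± 0.16, adjusted p = 0.151).

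The proteases were not called. MBTPS1 (site-1 protease) was at 227, 203 and 218 CPM in WT and 214, 226 and 221 CPM in KO, which overlapped (0.03 ± 0.10, edgeR adjusted p = 0.891, 95% interval -0.19 to 0.25). MBTPS2 (site-2 protease) was at 41.5, 39.6 and 37.4 CPM in WT and 51.2, 49.8 and 65.7 CPM in KO, without overlap and just short of the threshold (0.49 ± 0.17, adjusted p = 0.0515).

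**Figure D3:**
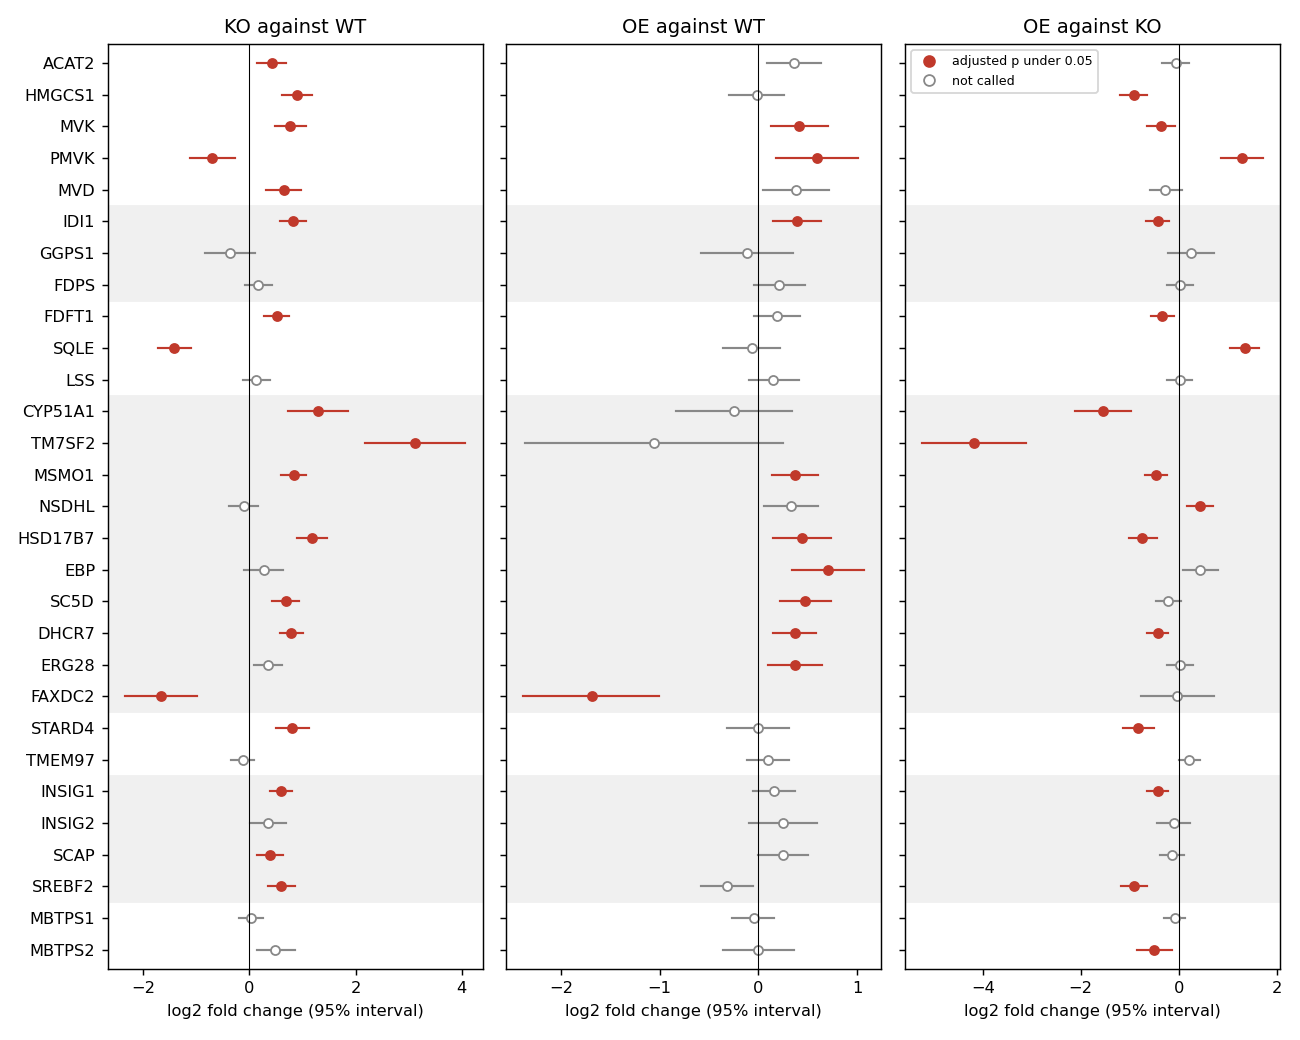
Log2 fold change of each gene with its 95% interval (horizontal axes, each panel on its own scale) for KO against WT, OE against WT and OE against KO. Filled red points passed an edgeR adjusted p of 0.05 and open grey points did not; in the left panel 16 filled points lie right of 0 and 3 (PMVK, SQLE and FAXDC2) lie left.

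Of the 19 calls in this comparison, 16 held under all 19 alternatives tried. Over these, the share of all genes called higher ran from 5.48% with no filter on low counts to 12.7% with the length correction, and the share called lower from 5.32% with no filter to 11.4% with the replicate block. ACAT2 lost its call without WT replicate 1 (adjusted p = 0.0777), WT replicate 3 (0.124), KO replicate 1 (0.109) or KO replicate 3 (0.0645). SCAP lost it without any of the WT libraries (adjusted p of 0.0547, 0.0785 and 0.0653 without replicates 1, 2 and 3), without KO replicate 1 (0.122) and without KO replicate 2 (0.118), and both lost it under upper-quartile scaling (0.0609 and 0.0578). PMVK lost its call without WT replicate 1 (0.0744), WT replicate 2 (0.0839), KO replicate 2 (0.08) or KO replicate 3 (0.114). All of these p-values are from edgeR, and the direction of each gene stayed as reported.

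Genes near some members on the chromosome also moved in KO, which was measured as the median log2 fold change of up to 50 nearest tested genes. This median was beyond 0.4 in size for 4 members. Around FAXDC2 it was -0.63, with 28 of 50 neighbours called lower, and around HSD17B7 it was 0.43, with 18 of 50 called higher. Around LSS and NSDHL it was -0.51, with 13 of 33 and 17 of 50 neighbours called lower, while LSS (0.13) and NSDHL (-0.11) were not called. Around SQLE it was 0.23, opposite in sign to the fall of SQLE, and around TM7SF2 -0.03. Without the 4 members whose neighbour median was beyond 0.4, 15 genes were higher and 2 lower, beside 9.16% and 9.6% of all genes tested. The part of these regional shifts in the members' values was not tested.

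**Figure D4:**
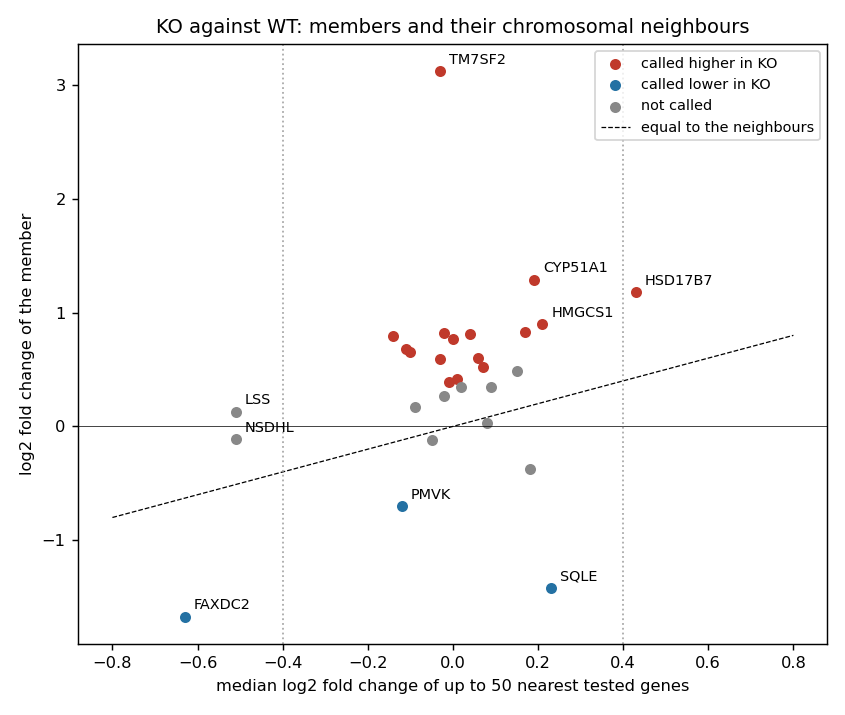
Log2 fold change of each member in KO against WT (vertical axis) against the median log2 fold change of up to 50 nearest tested genes (horizontal axis), with members called higher in red, lower in blue and not called in grey. Dotted lines mark a neighbour median of 0.4 in either direction and the dashed line equality; FAXDC2, LSS, NSDHL and HSD17B7 lie beyond the dotted lines, and SQLE lies at 0.23 against its own -1.42.

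The libraries labelled OE were next compared with WT. Of the 29 genes, 9 rose, 1 fell and 19 were not called. Over all genes tested, 9.65% were called higher and 11% lower. The median of the members was 0.21, against -0.01 over all genes. The genes that rose were MVK, PMVK and IDI1 in the first steps and HSD17B7, MSMO1, DHCR7, SC5D, EBP and ERG28 past lanosterol. By edgeR, DESeq2 and limma, 0 of the 6 control genes were called, and 2 of them (SCAP and SREBF2) had an unadjusted p under 0.05 in edgeR. Of all calls in this comparison 46.7% were higher in OE, a share that was 25.9% when scaled by library totals alone and 62% with the length correction.

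EBP had the largest rise, from 84.6, 93.3 and 66.8 CPM in WT to 111, 172 and 116 CPM in OE, with OE replicate 2 the highest (0.70 ± 0.17, edgeR adjusted p = 0.00973). SC5D was at 138, 119 and 129 CPM in OE, above its WT values of 84.3, 100 and 94.3 CPM (0.47 ± 0.12, adjusted p = 0.0127). PMVK, at 61.7, 82.6 and 63 CPM in OE, was above all WT libraries too (0.59 ± 0.20, adjusted p = 0.0409), where in KO it had fallen. The remaining 6 that rose, MVK, IDI1, HSD17B7, MSMO1, DHCR7 and ERG28, had log2 fold changes of 0.37 to 0.44 and adjusted p of 0.0203 to 0.0469. FAXDC2 was the gene that fell, to 1.65, 1.94 and 2.16 CPM in OE, less than each WT library (-1.69 ± 0.32, adjusted p = 0.0024). FAXDC2 was lower than WT in KO too, but the comparisons share the WT libraries.

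HMGCS1 overlapped WT in the libraries labelled OE at 384, 289 and 369 CPM (-0.02 ± 0.13, edgeR adjusted p = 0.936, 95% interval -0.30 to 0.26). SQLE was at 113, 80.1 and 98.8 CPM, on both sides of its WT values (-0.07 ± 0.14, adjusted p = 0.757). STARD4, at 88.3, 65.3 and 95.8 CPM, also overlapped WT (0.00 ± 0.15, adjusted p = 0.99). Of the control genes, SREBF2 was at 151, 123 and 141 CPM, with OE replicate 1 above WT replicate 2, and was not called (-0.32 ± 0.12, adjusted p = 0.078). INSIG1 was at 223, 241 and 237 CPM, just above WT and not called (0.16 ± 0.10, adjusted p = 0.286). SCAP stood at 361, 366 and 335 CPM (0.25 ± 0.12, adjusted p = 0.141) and INSIG2 at 22.1, 26 and 25.2 CPM (0.25 ± 0.16, adjusted p = 0.302). TM7SF2 had 10, 0 and 4 counts in the libraries labelled OE, and a count of 0 allows up to 0.415 CPM in that library. Its groups overlapped, since OE replicate 1 at 1.1 CPM lay within WT, and its difference was too uncertain to call (-1.06 ± 0.62, adjusted p = 0.24, 95% interval -2.36 to 0.25).

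Members of the middle of the route were not called in this comparison. FDFT1 was at 405, 408 and 383 CPM in OE (0.19 ± 0.11, edgeR adjusted p = 0.254), LSS at 208, 226 and 207 CPM (0.15 ± 0.12, adjusted p = 0.397) and FDPS at 138, 146 and 132 CPM (0.21 ± 0.12, adjusted p = 0.248). ACAT2 was above all WT libraries at 173, 188 and 161 CPM and narrowly missed the threshold (0.36 ± 0.13, adjusted p = 0.0554). The other 7, MVD, GGPS1, CYP51A1, NSDHL, TMEM97, MBTPS1 and MBTPS2, had log2 fold changes of -0.25 to 0.38.

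These OE calls were the least stable. Only that of FAXDC2 held under all 19 alternatives, and the number of genes called higher was 1 without WT replicate 1, 1 without WT replicate 3, 3 without OE replicate 3, 4 without OE replicate 2, 5 without KO replicate 2 and 13 without WT replicate 2. The share of all genes called higher was 3.85%, 3.35%, 7.26%, 5.61% and 12.4% without WT replicate 1, WT replicate 3, OE replicate 3, OE replicate 2 and WT replicate 2, so it moved as well. The length correction ended the calls of PMVK (adjusted p = 0.0552), MSMO1 (0.0689) and ERG28 (0.138), all by edgeR. SREBF2 passed the threshold as lower in OE with library totals alone (edgeR adjusted p = 0.0304), with the replicate block (0.0387), without WT replicate 2 (0.0174) and without WT replicate 2 and OE replicate 2 together (0.0267), and was at -0.13 with the correction for transcript length (adjusted p = 0.424). SCAP passed as higher with that correction (0.38, adjusted p = 0.0239). TM7SF2 passed as lower without OE replicate 1 (edgeR adjusted p = 0.0391), on 0 and 4 counts in the OE libraries left. In all, 8 of the 19 uncalled members were called under at least 1 alternative.

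KO and the libraries labelled OE were then compared directly. Relative to KO, 3 genes were higher in OE, 13 were lower and 13 were not called, with 19% of all genes tested called higher and 20.6% called lower. The median of the members was -0.21, against -0.004 over all genes. SQLE showed the largest rise, from 38.3, 39.7 and 36.8 CPM in KO to 113, 80.1 and 98.8 CPM in OE (1.35 ± 0.14, edgeR adjusted p = 3.84e-06). PMVK was next, from 36, 27.6 and 21 CPM to 61.7, 82.6 and 63 CPM (1.29 ± 0.20, adjusted p = 0.000116). In both genes the groups stood fully apart. NSDHL, at 127, 169 and 149 CPM in OE, was higher than in KO (0.44 ± 0.13, adjusted p = 0.0122), while its 50 chromosomal neighbours had a median of 0.69 and 29 of them were called higher.

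TM7SF2, tested only because its KO libraries passed the filter, was the member furthest below KO in the libraries labelled OE. It was at 1.1, 0 and 0.376 CPM against 9.58, 8 and 11.1 CPM (-4.18 ± 0.50, edgeR adjusted p = 1.14e-05). CYP51A1 followed at 11.7, 5.26 and 6.49 CPM (-1.55 ± 0.27, adjusted p = 0.000313). HMGCS1 (-0.92 ± 0.13, adjusted p = 6e-05), SREBF2 (-0.91 ± 0.12, 3.72e-05) and STARD4 (-0.82 ± 0.15, 0.000461) were each lower in OE by nearly the same amount. HSD17B7 was at 36.7, 34.2 and 36.9 CPM in OE, between WT and KO and apart from both (-0.74 ± 0.14 against KO, adjusted p = 0.000484). MSMO1, DHCR7, IDI1 and INSIG1 were lower with log2 fold changes of -0.46 to -0.43 and adjusted p of 0.00289 to 0.00647, and MVK, FDFT1 and MBTPS2 with -0.50 to -0.33 and adjusted p of 0.0268 to 0.0423. Of the 6 control genes, SREBF2, INSIG1 and MBTPS2 were lower and SCAP (-0.14), INSIG2 (-0.10) and MBTPS1 (-0.08) were not called, though with the length correction MBTPS1 passed as higher (0.25, edgeR adjusted p = 0.04996).

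The length correction ended the calls of NSDHL (0.18, edgeR adjusted p = 0.193), MBTPS2 (-0.22, adjusted p = 0.244) and MVK (-0.24, adjusted p = 0.177) in this comparison. MBTPS2 also lost its call without KO replicate 3 (0.143), OE replicate 2 (0.139) or OE replicate 3 (0.0599), and NSDHL without KO replicate 3 (0.055). FDFT1 lost it without any of the KO libraries (0.0972, 0.0511 and 0.0524) or without OE replicate 1 (0.0516) or 3 (0.0936), and MVK without WT replicate 1 (0.0594), any KO library (0.141, 0.0556 and 0.0825) or OE replicate 1 (0.108) or 3 (0.191). The other 12 calls held under all 19 alternatives, over which the share of all genes called higher ran from 9.69% with no filter to 21.9% with upper-quartile scaling and the share called lower from 10.4% with no filter to 22.8% with library totals alone.

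The genes around the route were described by the same tests, as counts in lists chosen by function. Of all genes tested, 9.16% were called higher and 9.6% lower in KO than in WT. These shares were 9.65% and 11% in OE against WT, and 19% and 20.6% in OE against KO. Among the genes of acetyl-CoA supply and use, of which 5 were tested, the median in KO was 0.02. ACSS2, which activates acetate to acetyl-CoA, rose from 85.8 ± 2.03 to 130 ± 8.14 CPM (SD, n = 3; 0.60 ± 0.11, edgeR adjusted p = 0.00125). Against WT, in OE, 0 of the 5 were called by edgeR, DESeq2 or limma, and 0 had an unadjusted p under 0.05 in edgeR. Against KO, ACSS2 (-0.53) and ACLY (-0.41), the citrate-cleaving enzyme, were lower in OE.

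Of 16 genes that use isoprenoid phosphates for other products (ubiquinone, dolichol and prenylated proteins), 1 rose and 2 fell in KO, with a median of 0.07. SRD5A3, a reductase of dolichol synthesis, fell from 10.8 ± 1.85 to 4.87 ± 0.673 CPM (-1.15 ± 0.23, edgeR adjusted p = 0.00171), RABGGTA, a subunit of the transferase that prenylates Rab proteins, fell by 0.74 (adjusted p = 0.0379), and ZMPSTE24, a protease of prenylated proteins, rose by 0.41 (adjusted p = 0.0418). Against WT, 5 rose in OE and none fell (median 0.36). They included DOLK, dolichol kinase (0.72, adjusted p = 0.00132), RABGGTB, the partner of RABGGTA (0.61, 0.00794), ZMPSTE24 (0.44, 0.0292) and PDSS2, of ubiquinone synthesis (0.51, 0.0338). In OE against KO, 4 were higher and none lower (median 0.26), beside 19% and 20.6% of all genes tested. The 4 were SRD5A3 (1.49), RABGGTA (1.24), RABGGTB (0.82) and DOLK (0.66).

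Of 9 other regulators of SREBPs and of the turnover of sterol enzymes, 1 rose and 2 fell in KO, with a median of -0.05. SREBF1, which encodes the SREBP that mainly serves fatty acid synthesis, was at 70.1 ± 10.3 CPM in WT and 20.3 ± 5.83 CPM in KO (SD, n = 3). It fell while SREBF2 rose (-1.79 ± 0.19, edgeR adjusted p = 6.03e-06), and it was lower than WT in the libraries labelled OE too, at 26.5 ± 0.542 CPM (-1.41 ± 0.19, adjusted p = 0.000252). RNF145, a sterol-responsive ubiquitin ligase of the endoplasmic reticulum, fell from 76.5 ± 5.1 to 23.9 ± 2.7 CPM in KO (-1.68 ± 0.14, adjusted p = 3.8e-07). Its chromosomal neighbours had a median of -0.74, so part of its region was lower as well. MARCHF6, the ubiquitin ligase that marks squalene epoxidase protein for degradation, was at 269 ± 24.4 in WT, 566 ± 103 in KO and 261 ± 36.5 CPM in OE. It rose in KO (1.07 ± 0.14, adjusted p = 4.73e-05) and its chromosomal neighbours had a median of 0.45. In OE against WT, SREBF1 was the only one of the 9 called. In OE against KO, RNF145 (1.45) and PAQR3 (0.75), a Golgi anchor of the SCAP complex, were higher and MARCHF6 (-1.12) and SPRING1 (-0.56), a cofactor of site-1 protease, were lower.

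Of the 11 genes of the COPII coat, which carries the SCAP complex out of the endoplasmic reticulum, 2 rose and none fell in KO (median 0.21). These were the inner-coat genes SEC23A (0.59 ± 0.14, edgeR adjusted p = 0.0057) and SEC24A (0.66 ± 0.17, adjusted p = 0.0116). In OE against WT, 4 other genes rose and none fell (median 0.29), PREB (0.52, adjusted p = 0.0116), SEC13 (0.49, 0.0126), SEC23B (0.46, 0.0174) and SAR1A (0.42, 0.0197). In OE against KO, 3 were higher and 3 lower, beside 19% and 20.6% of all genes tested. Among them were PREB (0.65), SEC23A (-0.65), SAR1A (0.51) and SEC24A (-0.69). Of 8 genes that deliver sterol to the endoplasmic reticulum, 1 rose in KO and none fell (median 0.24). That gene was GRAMD1B, which takes up cholesterol from the plasma membrane, from 93.5 ± 14.5 CPM in WT to 256 ± 12.8 CPM in KO (1.45 ± 0.13, adjusted p = 9.62e-07), with 100 ± 8.5 CPM in OE. In OE against WT, STARD3 (0.48, adjusted p = 0.0265), a late endosomal sterol carrier, rose and NPC1 (-0.41, 0.0357), the lysosomal cholesterol exporter, fell. In OE against KO, GRAMD1B (-1.35), NPC1 (-0.69) and OSBP (-0.40) were lower and LIPA (0.65), the lysosomal lipase, was higher.

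Among the adrenocortical markers, STAR, which brings cholesterol into mitochondria for steroid synthesis, was at 318 ± 19.7 in WT, 543 ± 56.9 in KO and 387 ± 11.5 CPM in OE (SD, n = 3). It rose in KO (0.77 ± 0.11, edgeR adjusted p = 8e-05). SCARB1, the lipoprotein receptor through which adrenal cells take up cholesterol esters, was at 1090 ± 117 in WT, 1800 ± 124 in KO and 1940 ± 215 CPM in OE. It was higher than WT in KO (0.73 ± 0.11, adjusted p = 0.000201) and in OE (0.83 ± 0.11, adjusted p = 0.000252). NR0B1, a nuclear receptor that represses steroid-producing genes, rose from 4.76 ± 1.41 in WT to 15.3 ± 2.54 CPM in KO (1.68, adjusted p = 0.00011), and INHA, the alpha subunit of inhibin, from 5.43 ± 1 to 14.7 ± 3.21 CPM (1.44, adjusted p = 0.00074). Of the 8 markers, 4 were called higher in KO and none lower, beside 9.16% and 9.6% of all genes tested. The other 4 were not called in KO, NR5A1 (0.24), CYP11A1 (0.13), CYP17A1 (-0.21) and MC2R (-0.27). The median of the 8 in KO was 0.48, and the part of these markers in the members' values was not tested.

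The number of members called under each alternative fit varied most for OE against WT. In KO against WT it ran from 14 to 19 genes higher and from 2 to 3 lower. The shares of all genes ran from 5.48% to 12.7% higher and from 5.32% to 11.4% lower. In OE against KO the number of members ran from 2 to 5 higher and from 10 to 13 lower. There the shares of all genes ran from 9.69% to 21.9% higher and from 10.4% to 22.8% lower.

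**Figure D5:**
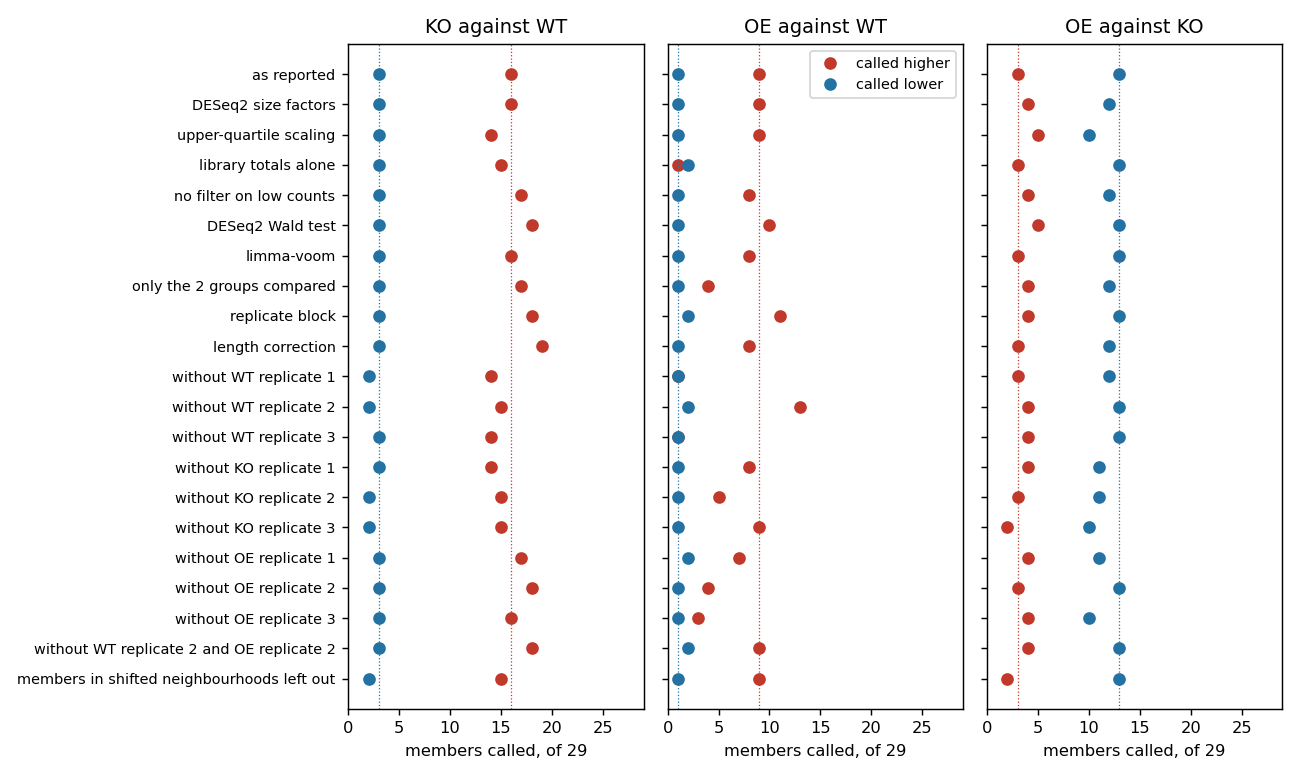
Number of members, of 29, called higher (red) and lower (blue) under each fit named at the left, for KO against WT, OE against WT and OE against KO, with dotted lines at the reported counts. In KO against WT the red points stay between 14 and 19; in OE against WT they run from 1 to 13, and where both counts are 1 the blue point covers the red one.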

How the data were processed

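The files the authors deposited hold raw read counts as whole numbers, 1 file per library. Per the file headers, featureCounts 1.5.2 counted reads over genes of Ensembl release 101, and per the submitters' processing notes HISAT2 1.03 and the GRCh38 build were used. The notes give featureCounts 0.1.0. The options in the header ignore strand and drop multiply mapped reads and those overlapping more than a single gene. Symbols were found for 60401 of 60671 identifiers (99.6%), and 0 lines lacked an identifier.

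Genes were tested with edgeR 4.0.16 in R 4.3.3 (TMM factors, a filterByExpr minimum of 10 counts, all 9 libraries in a single fit with a term for group, 6 residual degrees of freedom, common biological coefficient of variation 0.15). In KO against WT, log2 fold changes had a median standard error of 0.187. The 95% intervals are from edgeR's quasi-likelihood fit. Alternatives used limma 3.58.1, DESeq2 1.42.0, other scalings, no filter, a length correction (loess, span 0.5), a replicate block and each library left out. No pair of libraries of a group agreed within sampling noise. The fit was tested on simulated data with 200 changed genes. All 29 members are reported, with up to 4 genes per other list and comparison, those of smallest adjusted p, and promoters for members off chromosome 8 with the smallest adjusted p. A gene that this rule takes is not reported here. The members and lists were chosen with earlier results of these data known.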

Additional observations from a re-analysis of the deposited data

How the results depend on the processing

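No called member changed direction under 19 alternatives. MBTPS1, not called in OE against KO at -0.08, was at 0.25 and called with the length correction, and the cause was not tested. In KO against WT, 16 of 19 calls were kept throughout, and 3 further members (ERG28, EBP and MBTPS2) were called higher under at least 1 alternative. In OE against WT, 1 of 10 was kept, and in OE against KO, 12 of 16. The 9 genes higher in OE than in WT became 1 with library totals alone, 4 in a fit of only the 2 groups compared, and 1 to 13 with 1 library left out, while the share of all genes called higher was 9.65% as reported, 5.41% with library totals alone and 7.43% with only the 2 groups. The 1 gene lower in OE became 2 with library totals alone, 2 with the replicate block, 1 to 2 with 1 library left out, and 2 without WT replicate 2 and OE replicate 2 together, an alternative chosen after seeing the data. The share of all genes called lower was 11% as reported, 15.5% with library totals alone and 13.7% with the block. It was 5.25% to 12.9% with 1 library left out and 11.7% without those 2 libraries. The 3 genes higher in OE than in KO became 5 with upper-quartile scaling and 5 with the DESeq2 Wald test. The share of all genes called higher there was 19% as reported, 21.9% with upper-quartile scaling and 20.3% with the DESeq2 Wald test. Scaling moved the balance of all calls. In OE against WT, 46.7% of calls were higher as reported, 25.9% with library totals alone (median of all genes -0.129) and 62% with the length correction. In KO against WT that share was 48.8% as reported and 39% with library totals alone. Same-numbered libraries of different groups had correlations of their deviations from -0.138 to 0.246, and differently numbered ones from -0.281 to 0.224. Whether the replicate numbers pair the libraries was not tested. With the replicate block, 18 members were higher in KO than in WT, beside 11.5% of all genes. With the same block, 11 members were higher in OE than in WT, beside 12.9% of all genes. At 8006873 to 10895080 counts per library, the depth limits TM7SF2, FAXDC2, GGPS1 and CYP51A1 most.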
